A study of Mus musculus with 32 samples.

Results

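The libraries compared here were 2 wild-type (WT) and 5 Etv2 conditional knockout (CKO) ATAC-seq libraries of the mouse posterior hindlimb bud at the embryonic stage E10.25, chosen by their titles from the 32 libraries of the series. ATAC-seq marks open chromatin by inserting sequencing adapters where a transposase can reach the DNA, and the file of each library lists the summits of its peaks. The CKO embryos were HoxB6-Cre Tg/+;Etv2 fl/-, with 1 floxed and 1 null allele of Etv2 and the Cre transgene, which acts throughout the hindlimb precursor. The WT libraries are labelled as limb WT and were made from posterior hindlimb cells. Their strain is not given in the sources used here, and the study states that embryo sex was not determined. Embryos were pooled for every library, more of them in WT than in CKO. Both WT libraries carry 1 label date and each CKO library another, so date, pooling, any difference of strain, the Cre transgene and the loss of Etv2 cannot be told apart. Nothing in the labels says how the replicates of a group were separated, and every p-value measures the spread between these libraries.

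ETV2 is an ETS-family transcription factor known as a regulator of the endothelial and blood lineages. Sonic hedgehog (Shh) is the signal of the posterior limb bud that sets digit number and identity, and its limb expression depends on the ZRS, an enhancer in an intron of Lmbr1, far from Shh itself. Transcription factors of the HAND, HOX and ETS families act on the ZRS, Hand2 marks the posterior bud, and Isl1, Pitx1 and Tbx4 act in hindlimb initiation and identity.

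The stretches below are the regions on which the comparison turned, read from the plus strand of the reference genome (GRCm38.p6, mm10) over the 200 bp around a summit. The first pair lies at the ZRS summits of the WT libraries, the next is the Etv2 exon, and the others are regions near Hand2, Isl1, Hoxb6 and Irx3 that only one genotype listed among the 15000 highest-ranked summits of each library. Capitals mark matches on either strand to the ETV2 motif (AAGGAAAT, AAGGAAGT, CAGGAAAT, CAGGAAGT, GAGGAAAT or GAGGAAGT), the GATA motif (AGATAA or TGATAA) or the HOX motif (TTTATGG or TTTATTG).
ZRS, WT replicate 1 summit, chr5:29315223-29315422: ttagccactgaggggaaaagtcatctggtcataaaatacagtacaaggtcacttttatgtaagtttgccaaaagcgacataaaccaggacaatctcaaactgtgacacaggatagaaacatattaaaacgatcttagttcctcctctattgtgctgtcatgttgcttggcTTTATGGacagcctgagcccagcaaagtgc
ZRS, WT replicate 2 summit, chr5:29314863-29315062: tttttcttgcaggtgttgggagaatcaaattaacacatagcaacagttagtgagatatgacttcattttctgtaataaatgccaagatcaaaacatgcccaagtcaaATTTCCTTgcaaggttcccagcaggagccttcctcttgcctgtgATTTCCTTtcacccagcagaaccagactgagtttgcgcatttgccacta
Etv2 exon 4, chr7:30634708-30634907: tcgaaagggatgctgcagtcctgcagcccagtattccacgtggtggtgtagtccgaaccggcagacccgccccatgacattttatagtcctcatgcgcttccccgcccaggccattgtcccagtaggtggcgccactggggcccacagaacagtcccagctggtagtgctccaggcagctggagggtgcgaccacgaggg
Hand2 distal region, WT, chr8:57110823-57111022: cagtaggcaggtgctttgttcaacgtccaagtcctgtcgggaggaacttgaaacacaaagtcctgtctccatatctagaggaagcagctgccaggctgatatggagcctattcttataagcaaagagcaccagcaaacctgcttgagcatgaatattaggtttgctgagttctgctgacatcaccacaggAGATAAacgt
Isl1 distal region, WT, chr13:116495782-116495981: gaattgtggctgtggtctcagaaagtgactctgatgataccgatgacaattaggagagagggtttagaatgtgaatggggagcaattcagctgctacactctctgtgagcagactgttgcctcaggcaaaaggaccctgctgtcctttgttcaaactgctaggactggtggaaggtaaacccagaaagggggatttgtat
Hoxb6 promoter, CKO, chr11:96298852-96299051: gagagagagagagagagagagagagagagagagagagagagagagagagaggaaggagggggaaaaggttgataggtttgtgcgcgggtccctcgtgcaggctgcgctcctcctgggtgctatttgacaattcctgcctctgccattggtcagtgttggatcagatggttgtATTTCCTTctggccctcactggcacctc
Irx3 distal region, CKO, chr8:91953064-91953263: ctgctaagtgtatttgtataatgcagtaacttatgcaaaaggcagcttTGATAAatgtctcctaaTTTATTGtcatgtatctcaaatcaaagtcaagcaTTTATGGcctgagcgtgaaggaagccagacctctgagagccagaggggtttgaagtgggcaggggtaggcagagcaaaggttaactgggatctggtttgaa

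The stretch at the summit of WT replicate 2 in the ZRS held 2 matches to the ETV2 motif, and that at the summit of WT replicate 1 held 1 to the HOX motif and none to the ETV2 motif. The Irx3 stretch held 2 HOX matches and 1 GATA match. The Hand2 stretch held 1 GATA match, and the Hoxb6 promoter 1 ETV2 match. The Etv2 and Isl1 stretches held none of the 3. A match is a description of the letters and does not show binding.

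The WT lists held 43566 and 34051 summits outside the mitochondrial genome, and the CKO lists 32513, 15626, 42742, 19734 and 30146 for replicates 1 to 5. The files hold no read counts, so that depth is unknown and a value has no counting interval. Because a longer list holds more weak summits, each list was reduced to its 15000 highest-ranked summits, ranked by the −log10 q value that the authors deposited (rank 1 is the highest). Around these summits 30915 non-overlapping regions of 200 bp were placed. A library was taken to list a region if one of its summits lay no more than 200 bp from the centre of the region, and 21431 regions were listed by at least 2 of the 7 libraries.

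CKO replicates 2 and 4 stood apart from the other libraries, and CKO replicate 3 stood close to WT. The overlap of 2 libraries is given as the Jaccard index, the regions both list over those either lists. It was 0.677 between the WT libraries. CKO replicate 3 overlapped WT at 0.642 and 0.622, about as much as it overlapped CKO replicates 1 and 5, at 0.653 and 0.641. CKO replicates 1 and 5 overlapped WT between 0.555 and 0.559, and CKO replicates 2 and 4 between 0.422 and 0.446. The lowest index of all pairs, 0.355, was between CKO replicates 2 and 4, both CKO. CKO replicate 2 had 21.7% of its bases in soft-masked repeats, against 6.19% to 8.90% in the other CKO libraries and 6.17% and 6.64% in WT.

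**Figure D1:**
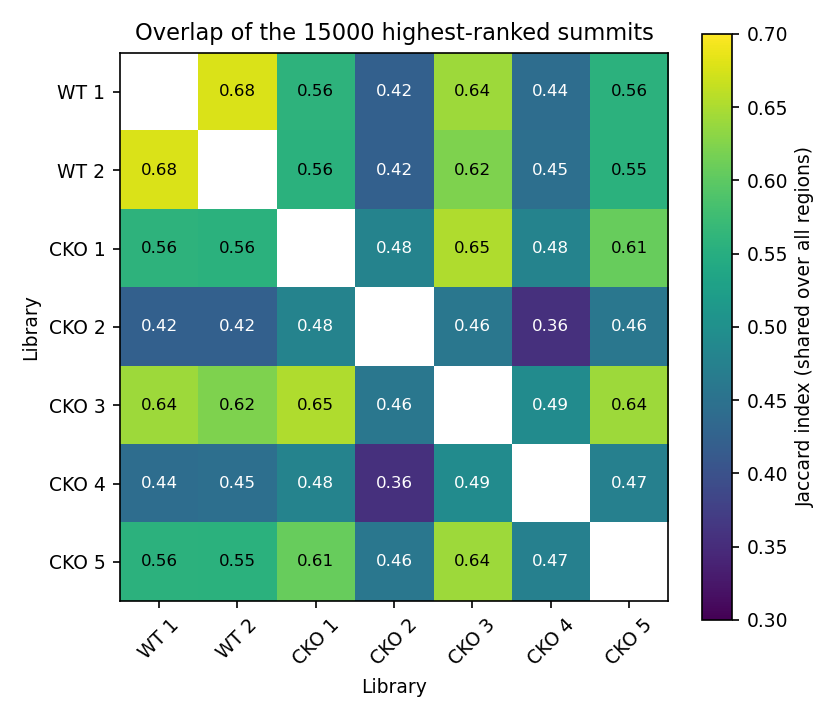
Jaccard index (colour and number) for each pair of the 7 libraries, over the 15000 highest-ranked summits of each. The WT pair and the pairs of CKO replicates 1, 3 and 5 exceed 0.60, whereas every pair with CKO replicate 2 or 4 is below 0.50.

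A closer resemblance of whole lists within genotypes was not detectable. The mean index within genotypes exceeded the mean between genotypes by 0.00238 (exact permutation test over the 21 assignments of 2 WT labels to 7 libraries, one-sided, p = 0.571). The median was 0.479 over the 10 CKO pairs and 0.556 over the 10 pairs of unlike genotype. In bulk tissue, fewer cells of a type and less open chromatin per cell cannot be told apart, here or in the results that follow.

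Both WT libraries and none of the 5 CKO libraries listed 721 regions (WT-only; 3.36% of 21431), and all 5 CKO libraries and neither WT library listed 226 (CKO-only; 1.05%). The WT-only set is asked for by 2 libraries and the CKO-only set by 5, so that the sizes of the sets cannot be compared with each other. All 7 libraries shared 5676 regions. Most called regions were a matter of rank, not of presence: 156 of the WT-only and 67 of the CKO-only regions were missing from every whole list of the other genotype. A summit of the other genotype lay within 1000 bp in some whole list for 631 of the 721 and for 219 of the 226. Of the WT-only regions, 484 (67.1%) appeared further down the whole list of CKO replicate 3, 316 in replicate 1, 295 in replicate 5, 106 in replicate 4 and 3 in replicate 2. WT-only regions stood in the lower part of the WT lists, with a median rank of 11611 against 8766 for CKO-only regions and 4151 for the regions of all 7.

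The counts moved with the libraries left out. Without CKO replicate 2 the WT-only count was 810 and the CKO-only count 461, without replicate 4 they were 854 and 377, and without replicate 3 they were 1016 and 303. They were 1569 and 490 without WT replicate 1 and 1552 and 456 without WT replicate 2. At 30000 summits, with CKO replicates 2 and 4 left out, 2405 and 1434 regions met the 2 rules.

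A test over all regions used the rank score, which runs from 1 for the highest-ranked summit of a library down to 0 for a region it did not list. By limma with Benjamini-Hochberg adjustment, 460 regions (2.15% of 21431) had a higher score in WT and 46 (0.215%) a higher score in CKO at an adjusted p below 0.05. Of these, 320 of the 460 were WT-only and 32 of the 46 CKO-only. The counts of calls changed with the library left out, and 45 regions were still called higher in CKO without CKO replicate 4. The 460 fell to 0 without WT replicate 2 or without any one of CKO replicates 1, 2, 3 and 5, to 1 without WT replicate 1 and to 247 without CKO replicate 4, and the 46 fell to 0 without CKO replicate 1 or 5, to 5 without replicate 2 and to 8 without replicate 3. At an unadjusted p under 0.05, limma gave 1806 and 672 regions over all libraries, 802 to 2008 higher in WT in the fits where that call was 0, and 482 and 607 higher in CKO without replicates 1 and 5. Without the filter on libraries, limma called 0 regions higher in WT and 19 higher in CKO (1784 and 681 at an unadjusted p under 0.05). A region of WT alone could pass that filter only through the group where it was high. WT-only and CKO-only regions were moreover chosen by the same ranks, so that the limma values given for them below set a difference beside its spread and are no independent support.

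At the targeted gene, both WT libraries and no CKO library had a summit. Etv2 (ENSMUSG00000006311.8; chr7:30633616-30635852, minus strand) had 1 region, in its exon 4. It was listed at rank 14043 by WT replicate 1 and at rank 17836 in the whole list of WT replicate 2, and no whole list of the 5 CKO libraries held it. The lists of CKO replicates 2 and 4 end at 15626 and 19734 summits and could not hold a region as far down as most libraries ranked it. The 2 CKO libraries made at E10.5 did not list it either, whereas 13 of the 23 remaining libraries of the series did, at ranks from 18937 to 50502, 12 of them beyond 19734. Whether this exon lies between the loxP sites is not given in the sources used here. No library of the 7 listed a summit within 1000 bp of the Etv2 start.

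The ZRS was listed by both WT libraries and by no CKO library, low in the lists. Its summits were at chr5:29315322 in WT replicate 1, rank 30114 of 43566, and at chr5:29314962 in WT replicate 2, rank 33139 of 34051. Listing in 2 of 2 against 0 of 5 libraries gives p = 0.0476 by Fisher's exact test (two-sided), the smallest these group sizes allow. The CKO lists other than that of replicate 3 were shorter than the WT list in which the ZRS stood at rank 33139, and among the 15000 highest-ranked summits no library of either genotype listed the ZRS.

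The posterior limb markers did not separate the genotypes in the same way. The Shh promoter was listed by neither WT library and, in whole lists, by CKO replicate 1 at rank 31358 and CKO replicate 4 at rank 16062. The Hand2 promoter was listed by all 7, at ranks 15105 and 11767 in WT and 9027 to 15431 in CKO, so the groups overlapped. Hoxd13, which patterns the distal limb, had its promoter at ranks 25209 and 24088 in WT and at 6372, 11750, 7867 and 17231 in CKO replicates 1, 3, 4 and 5, with no summit in the shorter list of replicate 2. Pitx1, a determinant of hindlimb identity, stood at 24915 and 20356 in WT and at 10887, 15352, 8668 and 13529 in the same 4 CKO libraries. The list of CKO replicate 4 is shorter than these WT ranks, so that its order was fixed by its length, and the ranks are given as a description. Accessible promoters of the limb mesenchyme markers Prrx1 and Tbx4 were listed by both WT libraries and by 4 of 5 CKO libraries each.

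The WT-only region of Hand2 was far from the gene. This region, 210061 bp from the start and with its stretch shown above, was listed at ranks 10356 and 14548 in WT and was missing from the 5 whole CKO lists, with no CKO summit within 15519 bp. Its rank score did not pass the test (0.17 in WT, 0 in CKO, difference 0.170 ± 0.0676, SE, limma adjusted p = 0.369). Of the 44 regions nearest to Shh and the regulators of the ZRS, this was the 1 WT-only region (2.27%, against 3.36% of all regions), and none was CKO-only. Their median score difference, WT minus CKO, was −0.0768, against 0.00202 over all regions.

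Isl1 was the nearest protein-coding gene of more WT-only regions than any other. Isl1 encodes a LIM-homeodomain factor needed to start the hindlimb, and 5 of the 12 regions nearest to its start were WT-only (3.36% of all regions were) and none CKO-only. The best-ranked, 186192 bp away and shown above, stood at ranks 7412 and 8628 in WT and only at rank 21209 in the whole list of CKO replicate 3, and it passed the test (score difference 0.465 ± 0.0640, SE, limma adjusted p = 0.0199). The others lay 107754, 11891, 4561 and 205263 bp from the start, the third of them in an intron, at WT ranks from 10284 to 14919. Their adjusted p lay between 0.0677 and 0.467, and whole CKO lists held them at no better rank than 15294. A sixth Isl1 region, 15336 bp away, which was not WT-only because a CKO library listed it, also passed (0.471 ± 0.0828, SE, limma adjusted p = 0.0301). Over the hindlimb identity list, 2 of 24 regions had a higher score in WT by limma (8.33%, against 2.15% of all) and 0 in CKO. The equal-length lists held 13 and 14 regions of this list in WT and 14, 9, 11, 14 and 14 in CKO, so the groups overlapped. The list also held 1 CKO-only region (4.17%, against 1.05% of all), the promoter of Hoxc10, a gene of the posterior body and hindlimb, at ranks 5246 to 11903 in CKO and 18292 and 15068 in whole WT lists. CKO replicate 3 listed all 5 regions in its whole list, CKO replicate 2 none of them.

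Bmp2, a BMP ligand of the posterior bud, had 3 WT-only regions of 9. The region 187019 bp from the start stood at ranks 12150 and 7422 in WT and at 22339, 29906 and 22642 in the whole lists of CKO replicates 1, 3 and 5. The exonic region, 2526 bp from the start, stood at 13733 and 13109 in WT and at 20251 to 23110 in the same 3 CKO libraries. The third, 205943 bp away, was at the very end of the equal-length WT lists, ranks 14966 and 14849. None of the 3 passed the test (limma adjusted p from 0.0891 to 0.904), and with Hand2 they made 4 WT-only regions among 48 of the posterior patterning list (8.33%, against 3.36% of all). That list also had 1 CKO-only region (2.08%), nearest to Tbx3, and a median score difference of −0.0881, higher in CKO. The BMP list had 5 WT-only regions of 69 (7.25%), these 3 and intronic regions nearest to the receptor gene Bmpr1b and to Fmn1, and 2 CKO-only regions (2.90%), nearest to the ligand gene Bmp4 and the BMP target Id1. In the remaining signalling lists the WT-only regions, against 3.36% of all, were 1 of 52 (1.92%) for Hedgehog components, in an intron of Hhip, which encodes a Hedgehog-binding inhibitor, 2 of 32 (6.25%) for Wnt components, both nearest to Tcf7l2, a nuclear effector of the pathway, and 0 of 45 for FGF components, where 1 region (2.22%, against 1.05% of all) was CKO-only, nearest to Spred2, an inhibitor of the pathway. Regions that passed the test by limma without being WT-only included the promoter of Disp1, which releases Hedgehog ligands from cells, and a region nearest to Spry2, an FGF antagonist (adjusted p = 0.0379 and 0.0416), both higher in WT.

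**Figure D2:**
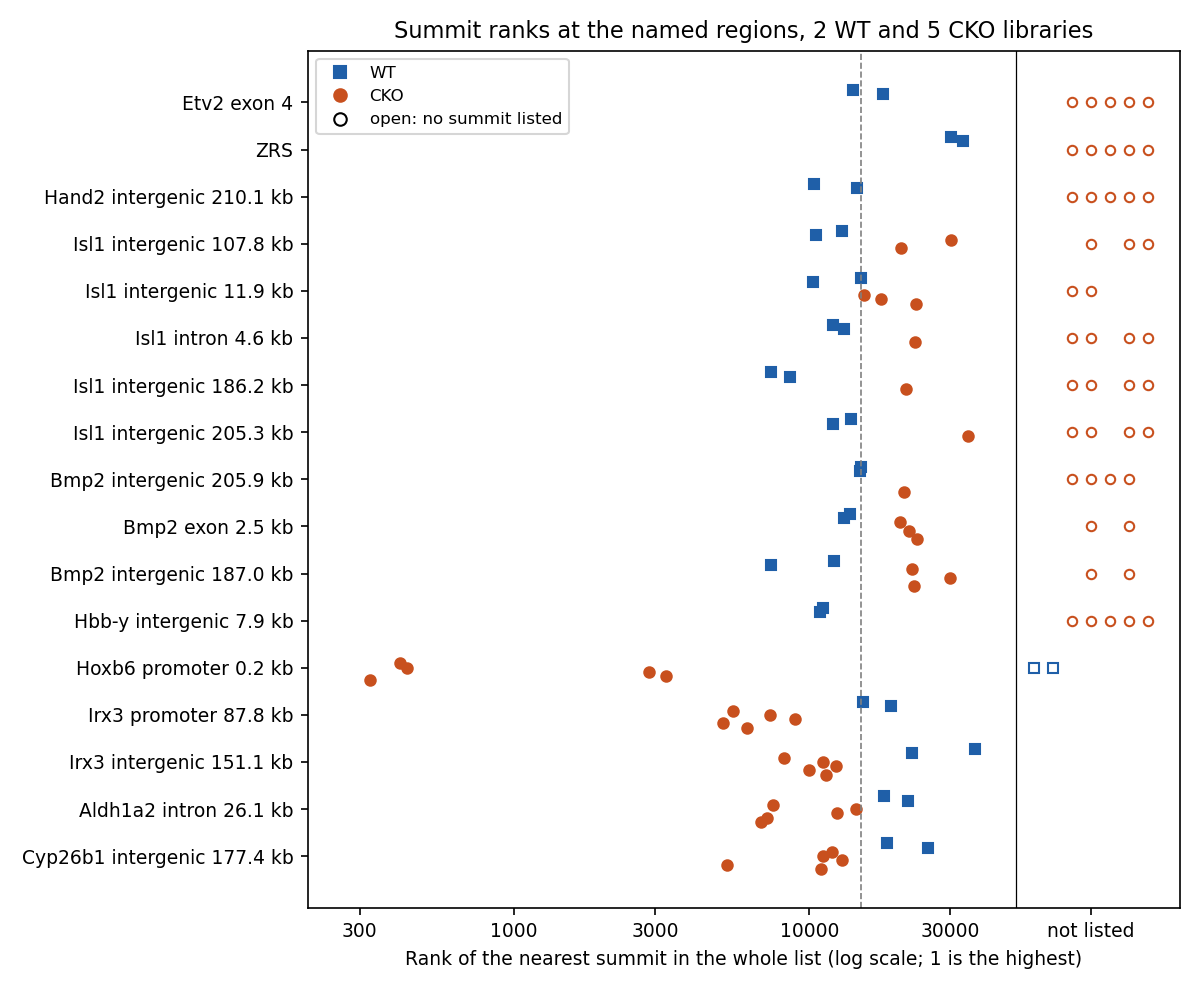
Rank of the summit at each named region in the whole list of each library (log scale, 1 is the highest; squares WT, circles CKO, open symbols no summit listed; the dashed line is rank 15000). Of Isl1, Bmp2 and Hand2 only the WT-only regions are shown. They stand left of the line in WT and right of it or unlisted in CKO. The rule that chose them requires this, so their side of the line is no separate result. The Hoxb6 promoter, a CKO-only region, stands at 324 to 3271 in CKO and is unlisted in WT.

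In the other direction the Hoxb6 promoter was the clearest gene of the lists. The region, 220 bp from a Hoxb6 start and shown above, was at ranks 410, 434, 2853, 3271 and 324 in CKO replicates 1 to 5 and in neither whole WT list, with no WT summit within 4220 bp (score difference −0.903 ± 0.0967, SE, limma adjusted p = 0.0199). The E10.5 CKO libraries listed it at ranks 175 and 457. Of the 23 remaining libraries, the 12 that listed it were all of the overexpression experiment, at ranks 6408 to 28379 (7 of 8 control and 5 of 6 Etv2 overexpression libraries, labelled E10.5), and none of the EYFP-sorted, E9.5, E10.5 posterior (Shh-EGFP+ cells) or E10.5 anterior (Shh-EGFP embryos) libraries did. In that experiment doxycycline induced Etv2 in embryos that carried HoxB6-Cre, and the labels do not say which of the transgenes each control carried. The study's methods describe littermates without the Etv2 or the rtTA transgene as controls, and controls without HoxB6-Cre are described for its gene expression stains. HoxB6-Cre carries regulatory sequence of Hoxb6, which reads of the transgene could share, and the part of the transgene in this result was not tested. Across the HoxB cluster the equal-length lists held 8, 6, 2, 6 and 5 regions in CKO and 0 and 0 in WT. Such counts per library include regions that only 1 library listed.

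In the list of the proximal-distal axis and retinoic acid no region passed the test by limma. Of its 45 regions, 5 (11.1%) were CKO-only, against 1.05% of all regions, and 1 (2.22%) was WT-only. Among them were regions nearest to Aldh1a2, which makes retinoic acid, Cyp26b1, which degrades it, its receptor gene Rara, and Meis1, a homeobox gene of the proximal limb. The WT-only region of the list was also nearest to Meis1, 101801 bp from its start, at ranks 13407 and 13742 in WT. The equal-length lists held 42, 34, 35, 41 and 29 regions of the list in CKO and 25 and 20 in WT, so the groups did not overlap. This was not particular to the list. Both WT libraries also lay below every CKO library for the HoxB cluster and for limb mesenchyme and cartilage. The same held for posterior patterning (21 and 23 in WT, 25 to 34 in CKO) and Wnt components (18 and 20, 21 to 29). It held for proliferation too (20 and 18, 24 to 31). In no list did both WT libraries lie above every CKO library. At Aldh1a2 the intronic region stood at ranks 7528, 14455, 12384, 7180 and 6864 in CKO and at 17981 and 21635 in whole WT lists. These 4 CKO-only regions had limma adjusted p from 0.513 to 0.615, and the median score difference of the list, −0.0711, was one of 16 below 0 among the 19 lists. Irx3, a homeobox gene of the anterior and proximal limb, was nearest to 2 CKO-only regions of 7, one of them at the start of another transcript 87845 bp from Irx3, with CKO ranks from 5099 to 12354 and whole-list WT ranks of 15179 to 36524 (limma adjusted p = 0.115 and 0.340). The other called regions of the anterior patterning list were WT-only: 3 of 39 (7.69%, against 3.36% of all), at the promoter of Lhx9 and at 2 regions nearest to Pax1. The Pax1 region 2498 bp from its start stood at ranks 11300 and 11854 in WT and at 17894 and 19957 in the whole lists of CKO replicates 3 and 5 (limma adjusted p = 0.0276). The Lhx9 promoter and the other Pax1 region did not pass the test (limma adjusted p = 0.0618 and 0.379).

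The limb mesenchyme and cartilage list also was listed more in CKO, at 53, 44, 45, 59 and 59 regions against 37 and 36 in WT, and 1 of its 77 regions was CKO-only and 1 WT-only (1.299% each, against 1.05% and 3.36% of all), both near Sox9, the master factor of cartilage. Of the 19 gene lists, 16 had a median score difference below 0 (higher in CKO) and 3 above it: hindlimb identity (0.0541), blood (0.0680) and ectoderm (0.0850). These medians are a description, since the lists share libraries.

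Some regions near blood genes ranked higher in the WT libraries. Of 22 regions near 15 blood genes, 3 (13.6%, against 3.36% of all) were WT-only, among them regions nearest to the embryonic globin gene Hbb-y and to Myb, a factor of blood progenitors, and none was CKO-only. Together with a region 274809 bp from Ptprc these passed the test, 4 of 22 (2.15% of all regions did; limma adjusted p from 0.0215 to 0.0420). The Hbb-y region stood at ranks 11104 and 10895 in WT, and no whole CKO list held it. The summed number of listed blood regions was 15 and 20 in WT and 10, 10, 8, 15 and 9 in CKO, so that CKO replicate 4 reached the lower WT value. Around 5 defining blood genes the equal-length lists held 7 and 7 summits in WT and 6, 3, 5, 10 and 6 in CKO. Promoters of the defining genes Klf1, Spi1 and Ptprc were in no list and that of Gata1 was in 1 WT list at rank 38439, while that of Runx1 was in all 7. Outside its promoter, Klf1 was the nearest gene to 1 summit in each of the 7 equal-length lists. The part of blood cells in the WT-only regions was not tested.

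Genes of the endothelial list, the lineage for which ETV2 is best known, gave no call in either direction, where the shares of all regions (3.36%, 1.05% and, by limma, 2.15% and 0.215%) amount to few regions in a list of this size. Of the 42 regions near 24 endothelial genes, none was WT-only or CKO-only and none passed the test, and the equal-length lists held 29 and 22 endothelial regions in WT and 25, 18, 24, 21 and 31 in CKO. The promoters of Cdh5, Pecam1, Tek and Tie1 were in none of the 7 lists, and that of Kdr was in all 7 at ranks from 5968 to 11019. Around 8 defining endothelial genes the equal-length lists held 7 and 6 summits in WT and 7, 6, 7, 6 and 10 in CKO, so the groups overlapped. Single genes went both ways. Around Erg, an ETS factor gene of endothelium, these lists held 0 and 0 summits in WT and 3, 1, 1, 1 and 4 in CKO. The Erg promoter was in 1 of 2 WT and 4 of 5 CKO whole lists. Around Cdh5 the equal-length lists held 3 and 3 summits in WT and 1, 1, 3, 1 and 2 in CKO. Outside the list, the promoter of Adgrl4, an endothelial adhesion receptor, was WT-only (ranks 7216 and 10059). Of the remaining lists, muscle progenitors had 1 region in each direction of 14, of which the WT-only one, nearest to the muscle factor gene Myf6, had a limma adjusted p of 0.0199, the ectoderm and apical ridge none of 11, GATA factors and cofactors 1 in each direction of 17, neural crest and nerve 1 WT-only region of 8, nearest to Stmn2, and apoptosis 1 WT-only region of 19, at the Fas promoter. The proliferation list had 1 CKO-only region of 33, at the Myc promoter (limma adjusted p = 0.567), and 1 region higher in WT by limma, nearest to Mki67 (adjusted p = 0.0246). With lists of this size, 1 region is not far from the shares of all regions, 3.36% WT-only and 1.05% CKO-only.

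The 10 best-ranked WT-only regions missing from whole CKO lists had ranks from 82 to 6120 and lay near Tmem125, Sdccag8, Cobl, Gm3667, Cmas, Rhobtb3, Fcgr3, Tmem18, Lipo3 and Gm13271. Their 10 CKO counterparts had median ranks from 27 to 1696 and lay near Tmem125, D5Ertd579e, Sdccag8, Hoxb6, Mt1, Opa3, Rab11b, Rab5a, Lrpprc and Ezh2. Chosen by rank, these 20 regions are a description and carry no test. Many had a summit of the other genotype close by, and the part of strain in such displacements was not tested. The stretches at both Tmem125 regions, Cobl, Cmas, Tmem18 and D5Ertd579e consist of tandem copies of a short unit. The filter on soft-masked bases did not remove them. The part of these repeats in the placing and listing of summits was not tested either. Near Tmem125 the WT summits stood at ranks 139 and 82 and the CKO summits at ranks 16 to 82, and the nearest summit of the other genotype was 471 and 473 bp away. At the Sdccag8 promoter that distance was 299 bp. Of the 10 WT regions, 5 had a CKO summit within 1000 bp, and of the 10 CKO regions, 8 had a WT summit within 1000 bp, the exceptions being Hoxb6 and D5Ertd579e. Mt1, which encodes a metallothionein that binds metals, stood at ranks 192 to 566 in CKO with a WT summit 773 bp away, at ranks 8813 and 7379, which was itself WT-only. The 3 best-ranked WT-only regions that occurred deeper in CKO lists were near Ezh2, Aim2 and Sos1, and the 3 CKO-only ones near Tbc1d14, Tns1 and St6galnac5.

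Apart from Isl1 and Bmp2, the 10 genes named for most WT-only regions and no CKO-only region were Pik3r1 with 4 of 10, Pls3 with 3 of 5, and Mndal, Mdm1, Adgrl3, Zfp213, Adgrl4 and Nckap5 with 2 each of their 2 to 5 regions, where 3.36% of all regions were WT-only. Pls3, which encodes the actin-bundling plastin 3, had its 3 regions at WT ranks from 2585 to 10620, each in an intron of the non-coding gene 4933407K13Rik and 76411 to 92163 bp from the Pls3 start. On the CKO side Tns1, Gm13283, Irx3, Limch1, Dact1, Arrdc4, Cstad, Lrmda, Ext2 and Rai1 had 2 each of their 3 to 13 regions, where 1.05% of all regions were CKO-only. Dact1 encodes a modulator of Wnt signalling, and its region 123766 bp away was in all 5 CKO lists at ranks 6200 to 9845 and in no whole WT list (limma adjusted p = 0.210). The 2 Gm13283 regions are 200 bp apart and were called by the same summits.

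Regions listed by one genotype were mostly distal. Promoters, taken as positions within 1000 bp of a transcription start, made up 65.8% of all 21431 regions and 87.1% of those in all 7 libraries, but 28.6% of WT-only and 41.2% of CKO-only regions. Intergenic positions made up 39.5% of WT-only, 28.3% of CKO-only and 17.4% of all regions, and introns 28.0%, 29.6% and 14.9%. The median distance to a start was 12210 bp for WT-only, 4912 bp for CKO-only and 188 bp for all regions. WT-only and CKO-only regions also stood lower in the lists than the regions of all 7 (median ranks 11611, 8766 and 4151). The classes were not compared at like rank. The stricter sets went apart: promoters were 23.7% of the 156 WT-only regions missing from whole CKO lists and 71.6% of the 67 CKO-only regions missing from whole WT lists.

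**Figure D3:**
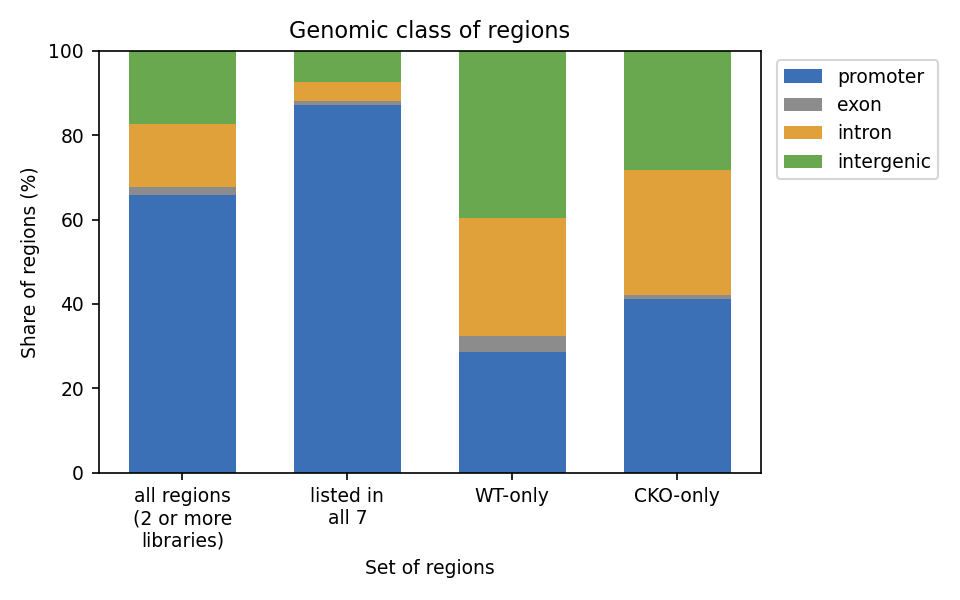
Share of regions (%, bars sum to 100) at promoters, exons, introns and intergenic positions, for all regions, those listed in all 7 libraries, WT-only and CKO-only regions. Promoters make up 87.1% of the regions shared by all 7 libraries, 41.2% of CKO-only and 28.6% of WT-only regions.

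Over whole libraries the promoter share depended on the list length. Promoters held 70.0% and 70.0% of the equal-length WT lists and 70.4%, 61.9%, 71.4%, 67.8% and 66.2% of the CKO lists. The WT mean exceeded the CKO mean, 67.55% ± 3.79 (SD, n = 5), by 2.43 percentage points (exact permutation test, two-sided, p = 0.524, where the smallest possible p is 0.0476). WT lay within the range of CKO. In whole lists the difference turned to −10.1 percentage points (exact permutation test, two-sided, p = 0.143).

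Motifs were counted over the 200 bp of distal regions, those more than 1000 bp from a start. The ETV2 motif was as frequent in WT-only regions as elsewhere, in 46 of 515 (8.93%) against 9.01% of all 7328 distal regions, and in 15 of 133 CKO-only regions (11.3%). In the stricter sets, the distal regions missing from every whole list of the other genotype, it was in 14 of 119 (11.8%) and 0 of 19. In percentage points, the HOX motif differed most between the sets in opposite directions: it was in 26 of 515 WT-only regions (5.05%), 21 of 133 CKO-only regions (15.8%) and 9.20% of all. In the stricter sets this contrast was absent, at 7 of 119 (5.88%) and 1 of 19 (5.26%). The motifs of TCF (CTTTGAA or CTTTGAT) and TEAD (GGAATG) were in 7.77% and 8.54% of WT-only and each in 15.04% of CKO-only regions, against 9.88% and 10.7% of all. In the stricter sets TCF was in 5 of 119 (4.20%) and 0 of 19, and TEAD in 10 of 119 (8.40%) and 2 of 19. The GATA motif was above the 13.7% of all distal regions on both sides, in 22.5% of WT-only and 21.1% of CKO-only regions, and in 46 of the 119 distal WT-only regions missing from whole CKO lists (38.7%) and 6 of the 19 distal CKO-only regions missing from whole WT lists (31.6%). The CTCF motif (CCACNAGG) was in 2 of 133 CKO-only regions (1.504%) against 5.83% of WT-only and 5.12% of all, and in 4 of 119 (3.36%) and 0 of 19 of the stricter sets. Mean GC content was close between the sets, 52.4% in WT-only, 51.8% in CKO-only and 53.7% in all distal regions.

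**Figure D4:**
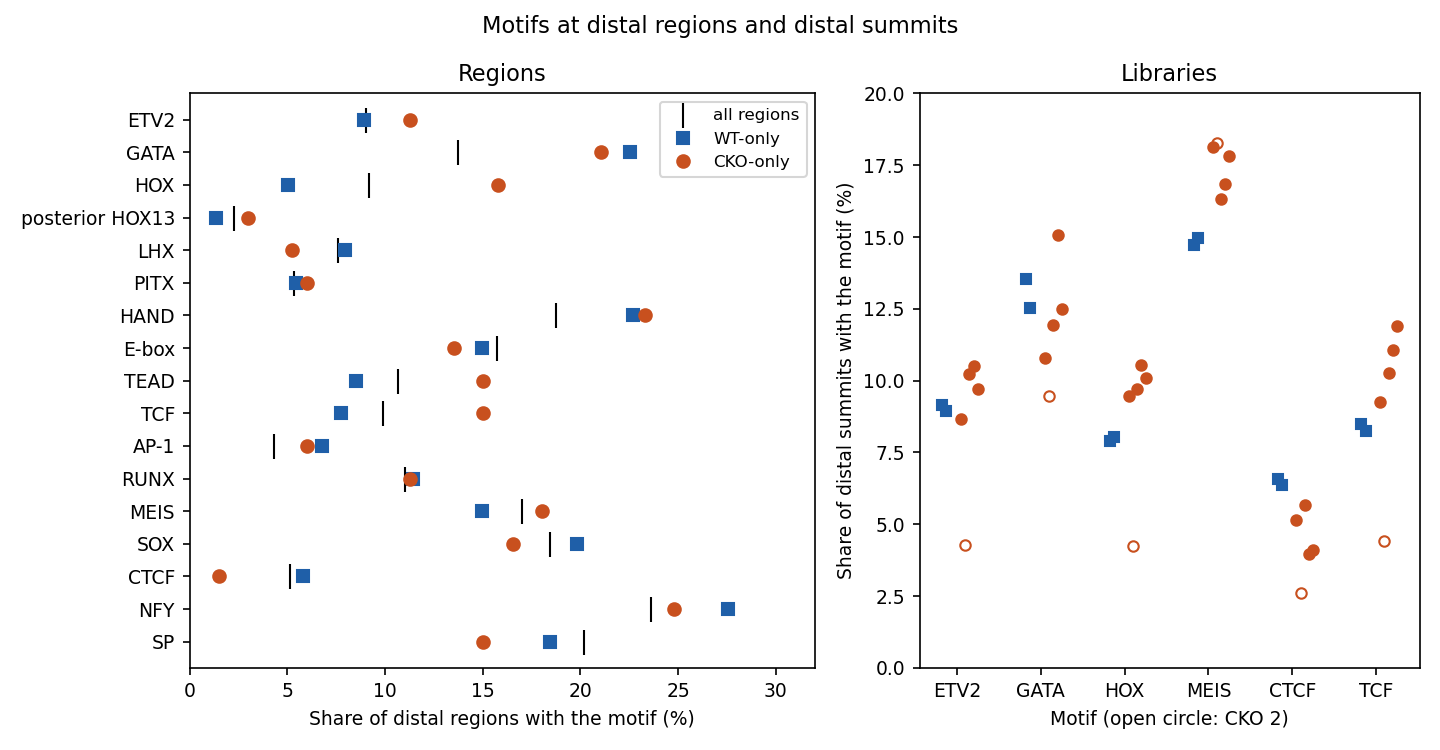
Left, share of distal regions (%) with each of 17 motifs among all regions (bars), WT-only (squares) and CKO-only (circles) regions. Right, share of distal summits (%) with 6 of the motifs in each library, CKO replicate 2 open, where the HOX share is 7.90% and 8.04% in WT and 9.47% to 10.54% in the other 4 CKO libraries.

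Over whole libraries, no motif of the 17 passed the test after adjustment. The ETV2 motif was in 9.17% and 8.93% of distal summits in WT and in 8.66%, 4.26%, 10.24%, 10.52% and 9.70% in CKO (difference of means 0.374 percentage points, exact permutation test, adjusted p = 0.952). Without CKO replicate 2 the difference turned to −0.729. For the HOX motif WT had 7.90% and 8.04% and CKO 9.47%, 4.25%, 9.72%, 10.54% and 10.1%, so that CKO replicate 2 alone lay below WT (exact permutation test, p = 0.714, adjusted p = 0.867). Without that replicate the groups did not overlap, which follows from leaving out the only CKO library below WT and is no test. The MEIS motif (TGACAG) was lower in both WT libraries, 14.7% and 14.98%, than in any CKO library, 16.3% to 18.3% (exact permutation test, p = 0.0476, adjusted over 17 motifs 0.607). CTCF was higher in both WT libraries, 6.59% and 6.36%, than in any CKO library, 2.60% to 5.67% (exact permutation test, p = 0.143, adjusted p = 0.607). So was the RUNX motif (TGTGGT), 11.39% and 11.33% against 10.71% to 11.26% (exact permutation test, p = 0.0952, adjusted p = 0.607). The E-box motif (CAGCTG) was at 17.20% and 17.22% against 9.77% to 16.88% (exact permutation test, p = 0.238, adjusted p = 0.8095). For the remaining motifs the groups overlapped.

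The 25 libraries that had no part in defining the sets gave a separate view of them. The E10.5 CKO libraries, of the same genotype and limb region a little later, listed 160 (70.8%) and 139 (61.5%) of the 226 CKO-only regions and 100 (13.9%) and 135 (18.7%) of the 721 WT-only regions. The 3 E10.5 hindlimb EYFP+ libraries, cells sorted for an Etv2 reporter, listed 34.1%, 34.1% and 48.7% of the CKO-only and 36.6%, 45.6% and 30.1% of the WT-only regions. Over the 23 libraries other than CKO and E10.25 WT, the CKO-only share ran from 21.7% to 48.7% with a median of 28.3%, below both E10.5 CKO libraries. The WT-only share ran from 16.0% to 45.6% with a median of 33.8%, and its lowest value, in the E10.5 anterior library with its list of only 13763 summits, lay between those of the E10.5 CKO libraries. The E9.5 hindlimb library, of the stage before Shh, listed 43.6% of the WT-only and 32.7% of the CKO-only regions, close to the 41.6% and 31.9% of the E10.5 posterior library. The study describes the E9.5 cells as wild-type and the E10.5 posterior ones as EGFP+ cells of Shh-EGFP reporter embryos. Its E10.5 anterior cells came from Shh-EGFP embryos too. Stage, sorting and reporter genotype therefore cannot be told apart between these libraries. All 21431 regions were listed at 56.5% and 56.0% in the E10.5 CKO libraries and at 47.2% to 59.2% in the other 23. In the stricter sets, missing from every whole list of the other genotype, the ranges overlapped. Of the 67 CKO-only regions the E10.5 CKO libraries listed 58.2% and 52.2%, and the other 23 libraries 25.4% to 55.2%. Of the 156 WT-only regions they listed 8.33% and 8.97%, and the other 23 libraries 5.77% to 31.4%.

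**Figure D5:**
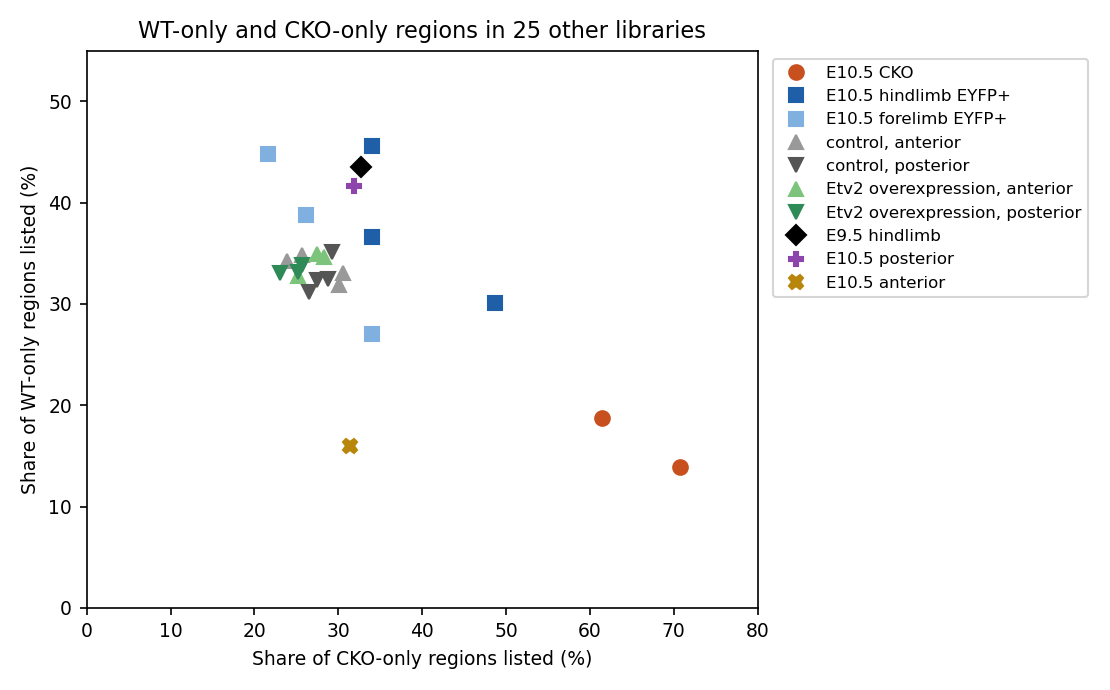
Share of the 226 CKO-only regions (x axis, %) and of the 721 WT-only regions (y axis, %) listed by each of the 25 libraries that did not define them. The E10.5 CKO libraries lie at the lower right, at 61.5% and 70.8% of CKO-only and 18.7% and 13.9% of WT-only regions.

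The regions differed by class. Of the 133 distal CKO-only regions the E10.5 CKO libraries listed 82.0% and 71.4%, and the other 23 libraries 18.1% to 56.4%. Of the 93 promoter CKO-only regions they listed 54.8% and 47.3%, and the other 23 libraries 24.7% to 48.4%, so that the ranges overlapped. WT-only regions went the other way. At the 206 promoter ones the E10.5 CKO libraries listed 8.25% and 9.22% and the other 23 libraries 13.6% to 49.0%, whereas at the 515 distal ones they listed 16.1% and 22.5%, overlapping the 16.9% to 47.4% of the others. Region by region, 137 WT-only regions (19.0%, against 6.44% of all) were listed by at least 2 of the 3 E10.5 hindlimb EYFP+ libraries and by no E10.5 CKO library, whereas 3 (0.416%) were listed in the opposite way, by both E10.5 CKO libraries and by no hindlimb EYFP+ library. Listing by no E10.5 CKO library, whatever the EYFP+ libraries listed, already held for 76.0% of WT-only regions against 33.8% of all. Listing by both E10.5 CKO libraries held for 53.5% of CKO-only regions against 46.3% of all. Among CKO-only regions 32 (14.2%, against 3.12% of all) were listed by both E10.5 CKO and by no hindlimb EYFP+ library, and 7 (3.10%) the other way. The 32 included the Hoxb6 and Mt1 promoters, the promoter of Hoxd1, the CKO-only Meis1 region 140854 bp from its start, and regions near Dact1, Nr2f2, Gsc and Msc, named after their values were seen. The WT-only Meis1 region was among the 137. The E10.5 libraries differ from each other also in cell sorting, in the cross and in the Cre transgene. The EYFP+ cells came from CD1 females bred with Etv2-EYFP males. None of these can be told apart from the loss of Etv2. The CKO embryos of E10.25 and E10.5 share HoxB6-Cre and the Etv2 alleles. Listing of CKO-only regions at both stages therefore does not separate the Cre transgene or the cross from the loss of Etv2.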

How the data were processed

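ATAC-seq peak summits of 2 WT and 5 CKO libraries (E10.25, posterior hindlimb) were analysed, with the other 25 libraries of the series as separate samples. The authors aligned reads with Bowtie2 2.2.4 to mm10 and called peaks per library with MACS2 (version not given in the sources used here). Deposited files list summits with the −log10 q value, at a q of 0.05 or lower, and were used here to rank summits within a library. They hold no read counts, and depth is unknown. Summit positions were checked against the chromosome lengths of GRCm38.p6.

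Mitochondrial summits were left out. Lists were reduced to 15000 summits, and non-overlapping 200-bp regions were placed on summits in order of rank. Rank scores, which fall in equal steps from 1 at the first rank and are 0 where not listed, were compared with limma 3.58.1 (R 4.3.3, trended eBayes, no replicate block) over regions listed by at least 2 libraries, tested on simulated data beforehand. Shares and overlaps were compared by exact permutation tests, and listing by Fisher's exact test. Genes are the nearest protein-coding start in GENCODE M21, which does not show that a region acts on that gene. Named regions were the 10 best-ranked per genotype that whole lists of the other genotype lacked (at most 50% soft-masked, not on Y) and the 3 best-ranked others. Named genes were the 10 per direction with most regions and none of the other direction, any gene of the 19 lists with such a region (some are not reported here), and Shh, Hand2, Hoxb6 and Etv2. The libraries, lists and rules were chosen with earlier results of these data known. Alternatives were list lengths, call distance, other listing rules, promoter width, motif settings and leaving out each library.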

Additional observations from a re-analysis of the deposited data

Results flagged for a closer look

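In the 5 CKO libraries, 48 measures per library were searched for a single library far from the other 4 (Dixon's criterion, 95% level), and 8 were found. Chance flags about 1 group in 20. CKO replicate 2 gave 6 of them. Its soft-masked share was 21.7% against a next highest of 8.90%, and its equal-length list held 43 summits on the Y chromosome against 16. Its share of distal summits was lowest for the HOX motif (4.25% against 9.47%), the posterior HOX13 motif (0.821% against 2.37%), the PITX motif (3.06% against 5.35%) and the HAND motif (10.4% against 17.9%). This library had the shortest list, 15626 summits, so that 15000 of them took in nearly its whole list, down to a −log10 q of 2.18, against 4.61 to 21.8 in the other CKO libraries. CKO replicate 4, the next shortest at 19734, listed 15 regions near blood genes against a next highest of 10, and 31 regions near proliferation genes against 25. The causes were not tested.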

How the results depend on the processing

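List length set the counts. The WT-only count was 408 at 10000 summits, 242 at 5000 and 2768 in whole lists, and the CKO-only count 99 at 5000 and 122 in whole lists. With at most 1 library of the other genotype allowed (and at least 4 of 5 CKO) the counts were 1473 and 2125. They were 156 and 67 for absence from whole lists of the other genotype and, in alternatives chosen after seeing the data, 90 and 7 with no summit of the other genotype within 1000 bp, and 2405 and 1434 at 30000 summits without CKO replicates 2 and 4. A call distance of 100 bp gave 124 CKO-only regions. Leaving out 1 library gave 810 to 1569 WT-only and 272 to 490 CKO-only regions. The limma calls higher in WT were 242 at 10000, 118 at 5000, 2177 in whole lists and 0 with no filter on libraries, and those higher in CKO were 27, 12, 41 and 19, and 28 at 100 bp. Leaving out 1 library gave 0 to 247 and 0 to 46, where a lone WT library is assumed to vary like the CKO libraries. With the replicate block, limma called 0 in each direction (2094 and 1059 regions at an unadjusted p under 0.05). It also called 0 in each direction at 30000 summits without CKO replicates 2 and 4 (3630 and 2431 unadjusted). The label dates differ between same-numbered libraries, which share only a number. The ZRS gave p = 1.0 by Fisher's exact test among the 15000 highest-ranked summits, where no library listed it, and 0.0667 to 0.167 without 1 library. The promoter difference turned to −10.1 percentage points in whole lists and was 1.007 to 3.395 without 1 library. The ETV2 motif difference turned to −0.203 at 10000 summits and ran from −0.729 to 0.837 without 1 library. The Jaccard difference turned to −0.0110 at 100 bp and ran from −0.0142 to 0.0278 without 1 library. The cause of these changes was not tested. The remaining alternatives kept direction and side of the threshold.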

Other observations

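Summits on the sex chromosomes varied among libraries. Whole lists held 53 and 50 Y-linked summits in WT and 68, 45, 188, 14 and 55 in CKO replicates 1 to 5. The equal-length lists held 459 and 463 X-linked summits in WT and 375, 483, 445, 388 and 398 in CKO (exact permutation test, two-sided, p = 0.333).

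The best-ranked CKO-only region that a WT list held deeper was in an intron 44357 bp from the Tbc1d14 start, at ranks 71, 69, 143, 760 and 79 in CKO and 21449 in the whole list of WT replicate 2. A neighbouring region in an intron nearest to D5Ertd579e stood at ranks 94, 84, 648, 3215 and 89 and was in no WT list. Their GC contents were 35.0% and 34.0%, against a mean of 62.0% over all regions. Of the 23 libraries that are neither CKO nor E10.25 WT, 17 listed each of the 2 regions, at best ranks of 75 and 468, so that listing there was not particular to CKO. By contrast, the WT summit near Tmem125 was in none of those 23 libraries and in neither E10.5 CKO library, whereas the displaced CKO summit was in 13 of the 23 and in both E10.5 CKO libraries. Both Tmem125 stretches consist of tandem copies of the same short unit, as the D5Ertd579e stretch does of another. The part of these repeats in where a summit was placed was not tested.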
